A study of Mus musculus with 2 samples.

Results

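The miRNAs described here are the arms of the miR-199 and miR-214 hairpins, 5 of the 1141 mouse miRNA probes on the arrays, taken by their reporter names: mmu-miR-199a-3p, mmu-miR-199a-5p, mmu-miR-199b-5p, mmu-miR-214-3p and mmu-miR-214-5p. The prefix mmu, for mouse, is left out below. They were measured in lung of wild-type mice given monocrotaline (MCT), a plant alkaloid that injures the vessels of the lung and is used to induce pulmonary arterial hypertension in rodents, and in lung of untreated wild-type mice. Per the labels, the MCT mice were treated at 14 weeks of age for 30 days, and no age is stated for the untreated ones. There was 1 array of total RNA for each group, and whether a sample came from a single animal or a pool is not stated, so no test between the groups was possible and no p-value is given. Each miRNA had 3 repeat spots on an array. Values after ± are standard deviations over those spots (n = 3 spots of 1 array), which measure the spread within an array and not between animals, and the standard deviation of a ratio combines those of both arrays as the root of their summed squares. In whole lung, fewer cells of a type and less RNA per cell cannot be told apart.

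A miRNA is cut from a hairpin with 2 arms, and either arm can be loaded into Argonaute, where the seed, bases 2 to 8 from the 5′ end, pairs with target mRNAs. miR-199a and miR-214 are processed from Dnm3os, a long non-coding RNA that lies antisense to the dynamin gene Dnm3 and is transcribed in mesenchymal cells, where the transcription factor Twist1 drives it. Both miRNAs are known from fibroblasts and smooth muscle. miR-199a-5p represses caveolin-1 in lung fibroblasts and is raised in fibrotic lung, miR-199a-3p represses Mtor and Met, and miR-214-3p represses Ezh2.

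The mature sequences show which probes can be told apart, so they are given with the seed in capitals, as the array's target sequences.
miR-199a-5p: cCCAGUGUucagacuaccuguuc
miR-199b-5p: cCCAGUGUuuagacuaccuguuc
miR-199a-3p: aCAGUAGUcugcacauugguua
miR-214-3p: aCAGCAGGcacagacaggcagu
miR-214-5p: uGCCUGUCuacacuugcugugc
miR-199a-5p and miR-199b-5p share their seed and differ by 1 base, C10U, counted from 1 at the 5′ end of miR-199a-5p. Their probes may therefore hybridise in part with each other's target. The probe named miR-199a-3p is listed for miR-199b-3p as well, since both have the same sequence, and it sums the 3p arms of 3 genes. The other 3 members have seeds of their own. Besides these, a single probe on the arrays shared a seed with a member: miR-761, which has the seed of miR-214-3p.

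The hairpins are shown with the arms in capitals, the 5p arm first, from RefSeq on GRCm38.p6. The first pair lies within Dnm3os.
Mir199a-2: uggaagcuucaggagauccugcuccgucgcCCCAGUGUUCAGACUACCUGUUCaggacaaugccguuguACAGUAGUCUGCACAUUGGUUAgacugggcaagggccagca
Mir214: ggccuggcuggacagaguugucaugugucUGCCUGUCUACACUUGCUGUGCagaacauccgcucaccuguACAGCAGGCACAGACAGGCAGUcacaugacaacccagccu
Mir199a-1: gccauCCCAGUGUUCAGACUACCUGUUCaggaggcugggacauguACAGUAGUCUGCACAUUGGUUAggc
Mir199b: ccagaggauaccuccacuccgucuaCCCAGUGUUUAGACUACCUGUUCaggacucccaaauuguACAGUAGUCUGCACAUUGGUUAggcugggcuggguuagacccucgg
Mir199a-2 occupies chr1:162217814-162217923 and Mir214 chr1:162223368-162223477, both on the plus strand and 5444 bases apart. Both lie inside Dnm3os, a long non-coding RNA gene at chr1:162217623-162225550 on the plus strand, within the span of Dnm3 on the minus strand. Mir199a-1 lies at chr9:21496495-21496564 on the minus strand, inside the span of Dnm2 on the plus strand. Mir199b lies at chr2:32318460-32318569 on the plus strand, inside the span of Dnm1 on the minus strand. Each miR-199 gene is thus antisense to a gene of the dynamin family; the gene table used gives no exons, so exon or intron was not looked up. The mature miR-199a-5p is encoded at 2 places and the sequence of miR-199a-3p at 3, so of the members only the miR-214 arms come from Dnm3os alone. Dnm3os itself has no probe among those analysed here.

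Of the 5 members, 4 were detected in both lungs. A miRNA counted as detected on an array when at least 2 of its 3 spots exceeded the 95th percentile of the empty spots, a scanner intensity of 284 on the MCT array and 116 on the untreated array. The MCT array was brighter as a whole, with a median of 253 over its empty spots against 101 on the untreated array. Scanner intensities therefore differ between the arrays for nearly any probe, and ratios are given after background correction and quantile normalization, relative to the other miRNAs. By the same rule on the scanner intensities, 409 miRNAs were detected on either array and 310 on both, with 316 on the MCT array and 403 on the untreated array. On the MCT array the median miRNA spot, at 226, read under the median empty spot. A limit set from the dim miRNA spots instead gave 296 on the MCT array and 278 on the untreated array.

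**Figure D1:**
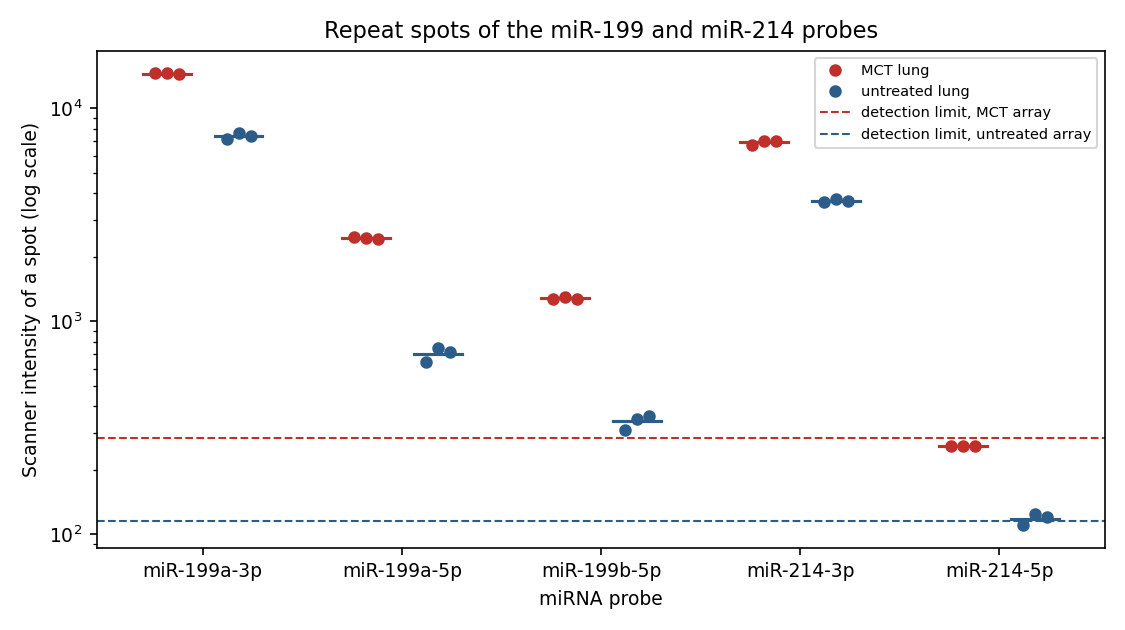
Scanner intensity of each repeat spot (points) and the mean of the 3 spots (bars) for the 5 members on a log axis, MCT lung left of untreated lung, with each array's detection limit as a dashed line. The spots of miR-199a-3p, miR-199a-5p, miR-199b-5p and miR-214-3p lie above the limit of their array, while miR-214-5p lies near the limits, with its MCT spots under that array's limit and 2 of its 3 untreated spots above that of theirs.

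None of the 5 members was called different between the lungs at a minimum of 2-fold with no overlap of the spots. Over all 409 miRNAs detected on either array, 4.16% were at least 2-fold higher and 2.20% at least 2-fold lower in MCT lung, or 6.36% in either direction. The ratios of the 4 detected members ran from 1.62-fold for miR-199a-5p to 0.824-fold for miR-214-3p. Both 5p arms of miR-199 had the highest ratios, miR-199a-3p lay near the middle, and miR-214-3p was the only member with a ratio below 1; without normalization, when centred or scaled by the 5S probes, and in the authors' deposited table its ratio was above 1, and with cyclic loess it had a log2 ratio of 0.00079.

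The 5p arm of miR-199a, the arm that represses caveolin-1, read 2490, 2473 and 2439 on its spots in MCT lung and 646, 748 and 716 in untreated lung. The spots of the 2 lungs did not overlap, and the MCT spots lay closer together. The scanner intensities differed 3.51-fold. After normalization the level was 10.72 ± 0.014 log2 in MCT lung and 10.02 ± 0.085 log2 in untreated lung, a log2 ratio of 0.70 ± 0.086. That is 1.62-fold, short of the 2-fold minimum. Of the 310 miRNAs detected on both arrays, 30 had a higher ratio.

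Its near-copy miR-199b-5p, from the Mir199b gene, read 1274, 1301 and 1277 in MCT lung and 310.4, 349 and 359 in untreated lung, again with no overlap. The untreated spots stood 2.67 to 3.09 times as high as that array's detection limit and the MCT spots 4.48 to 4.58 times. The normalized level was 9.503 ± 0.025 in MCT lung and 8.97 ± 0.16 in untreated lung, with a log2 ratio of 0.54 ± 0.16 or 1.45-fold. Among miRNAs detected on both arrays 48 had a higher ratio. The 2 probes of the shared seed thus had ratios 0.16 ± 0.18 apart, a difference within the spread of the spots. Across the 21 pairs of probes detected on both arrays that differ by 1 base, the median size of this difference was likewise 0.16. The order of these 5p arms turned with cyclic loess, without normalization, when centred or scaled by the 5S probes, and in the authors' table, where miR-199b-5p had the higher ratio.

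The shared 3p arm, miR-199a-3p, read 14608, 14606 and 14467 in MCT lung and 7193, 7640 and 7416 in untreated lung, far above both limits and without overlap. Its scanner intensity differed 1.96-fold, less than that of the 5p arm, but ratios before normalization also varied with the level. The normalized level was 13.41 ± 0.016 in MCT lung and 13.23 ± 0.036 in untreated lung. The log2 ratio of 0.18 ± 0.040, 1.13-fold, was larger than the spread of the spots but lay within the usual range of the arrays: 110 miRNAs detected on both arrays had a higher one.

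The guide arm of the Mir214 hairpin, miR-214-3p, a repressor of Ezh2, read 6729, 7011 and 7065 in MCT lung and 3625, 3744 and 3687 in untreated lung. The scanner intensity was 1.88-fold higher in MCT lung. Before normalization its log2 ratio was 0.89, under the median of 1.08 for miRNAs within 1 log2 unit of its level. The normalized level was accordingly 12.14 ± 0.042 in MCT lung and 12.42 ± 0.024 in untreated lung, a log2 ratio of -0.28 ± 0.048. Of the miRNAs detected on both arrays, 233 had a higher ratio.

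The 5p arm of Mir214 was close to background. Its spots read 259, 261 and 260.04 in MCT lung, all under the limit of that array, and 110.5, 124 and 121 in untreated lung, where 2 of the 3 passed. It counted as detected in untreated lung only, by a margin of at most 1.07 times the limit. By the limit from the dim miRNA spots, 301 on the MCT array and 149 on the untreated array, it was detected in neither lung. The normalized levels were 6.89 ± 0.0095 in MCT lung and 6.79 ± 0.13 in untreated lung, with overlapping spots, and the log2 ratio of 0.095 ± 0.13 did not exceed its spread. No fold is given for it, because its level in untreated lung lay under the lowest level of a detected miRNA in MCT lung. The seed relative of its other arm, miR-761, was not detected on either array, with spots between 193.1 and 204.2 in MCT lung and of 94.97 to 95.21 in untreated lung.

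**Figure D2:**
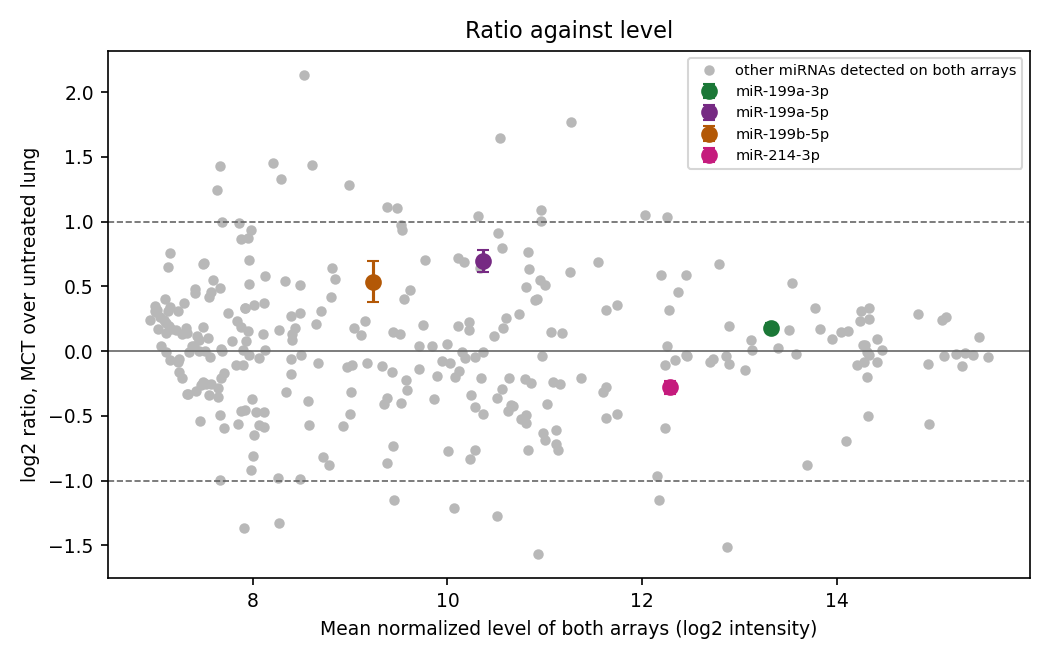
Log2 ratio of MCT over untreated lung against the mean normalized level for the 310 miRNAs detected on both arrays (grey) with the 4 members among them in colour, bars being the standard deviation over repeat spots, and dashed lines at 2-fold. miR-199a-5p at 0.70 and miR-199b-5p at 0.54 lie in the upper part of the cloud and miR-214-3p at -0.28 in the lower part, all 4 between the dashed lines.

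The spread of ratios depends on the level, so each member was also set beside the miRNAs within 1 log2 unit of its own level that were detected on both arrays. miR-199a-5p had a higher ratio than 84.6% of its 91 peers, whose median was -0.077. miR-199b-5p stood above 82.1% of 78 peers with a median of -0.017, and miR-199a-3p above 77.1% of 35 peers with a median of 0.011. miR-214-3p was higher than 21.9% of 32 peers, whose median was -0.039. Among peers the 3 miR-199 probes thus stood in the upper part and miR-214-3p in the lower part. These places are descriptions of the 2 arrays and are no test.

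By the same window, the miRNAs closest in ratio were named for each member from these 2 arrays alone. For miR-199a-5p they were miR-34c-3p, a miRNA of ciliated epithelium, at 0.69 ± 0.10, and miR-467c-3p at 0.71 ± 0.069. For miR-199b-5p they were miR-148a-3p, a repressor of the DNA methyltransferase Dnmt1, at 0.54 ± 0.18, and miR-22-5p at 0.56 ± 0.17. For miR-199a-3p they were miR-181a-5p at 0.17 ± 0.034 and miR-5099 at 0.19 ± 0.068. For miR-214-3p they were miR-140-3p, an arm of the cartilage miRNA miR-140, at -0.28 ± 0.21 and miR-3107-5p, whose sequence is that of the erythroid miR-486-5p, at -0.31 ± 0.047.

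The arms of a hairpin are cut from the same precursor, and their ratios were compared, while levels of different probes were not. For miR-199a the precursors differ in part, because the 3p probe also reads the product of Mir199b and the 5p probe is for Mir199a-1 and Mir199a-2. The log2 ratio of miR-199a-5p exceeded that of miR-199a-3p by 0.52 ± 0.095, more than the spread of the spots. Among the 42 hairpins with both arms detected on both arrays the median size of the difference was 0.37, and 16 of them, miR-199a included, had one at least as large. In 23 of the hairpins the 5p arm had the higher ratio and in 19 the 3p arm. The size of the gap for miR-199a depended on the processing. It was 0.81 without normalization, centred or scaled by the 5S probes, 0.33 with cyclic loess and 0.037 with the authors' processed values, where 39 of the 42 hairpins had a gap at least as large. Peers of like level had medians without normalization of 1.14 for miR-199a-5p and 0.78 for miR-199a-3p. Other miRNAs of those levels thus differed in the same direction. In the authors' deposited table miR-199a-5p stood at 1353 in MCT lung and 1015 in untreated lung, and miR-199a-3p at 11648 in MCT lung and 9060 in untreated lung, or 1.33-fold and 1.29-fold. For the miR-214 hairpin the difference of 0.38 ± 0.14 rests on a 5p arm not detected in MCT lung, and it turned to -0.45 without normalization and to -0.022 with the authors' values.

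The transcript offers a second comparison, because Mir199a-2 and Mir214 are carried by Dnm3os. The log2 ratio of miR-199a-5p exceeded that of miR-214-3p by 0.97 ± 0.099, and that of miR-199a-3p exceeded it by 0.46 ± 0.063. Over 72 pairs of miRNAs from different hairpins within 10 kb of each other on the same strand, both detected on both arrays, the median size of the difference was 0.20 and its upper quartile 0.35. The gap between miR-199a-5p and miR-214-3p was exceeded by 1 pair, that of miR-206-3p and miR-133b-5p, at 1.45. The gap between miR-199a-3p and miR-214-3p was reached or passed by 12 pairs, itself included. Pairs that share a miRNA are not independent, and miR-199a has its second gene within Dnm2. The pairs were not matched by level, on which the spread of ratios depends, so the rank of a gap is only a description. miR-199a-5p had the higher ratio in all 14 alternatives that gave a value, but without normalization, at a gap of 0.89, 8 of the pairs had one as large. The alternatives are not independent: centring and scaling by the 5S probes cancel out of a gap and repeat that value. The gap fell to 0.58 with cyclic loess and to 0.27 with the authors' processed values, where 32 of the 72 pairs had one as large. In the authors' table miR-214-3p stood at 5146 in MCT lung and 4691 in untreated lung, 1.10-fold, and miR-199b-5p at 670 in MCT lung and 392 in untreated lung, 1.71-fold.

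**Figure D3:**
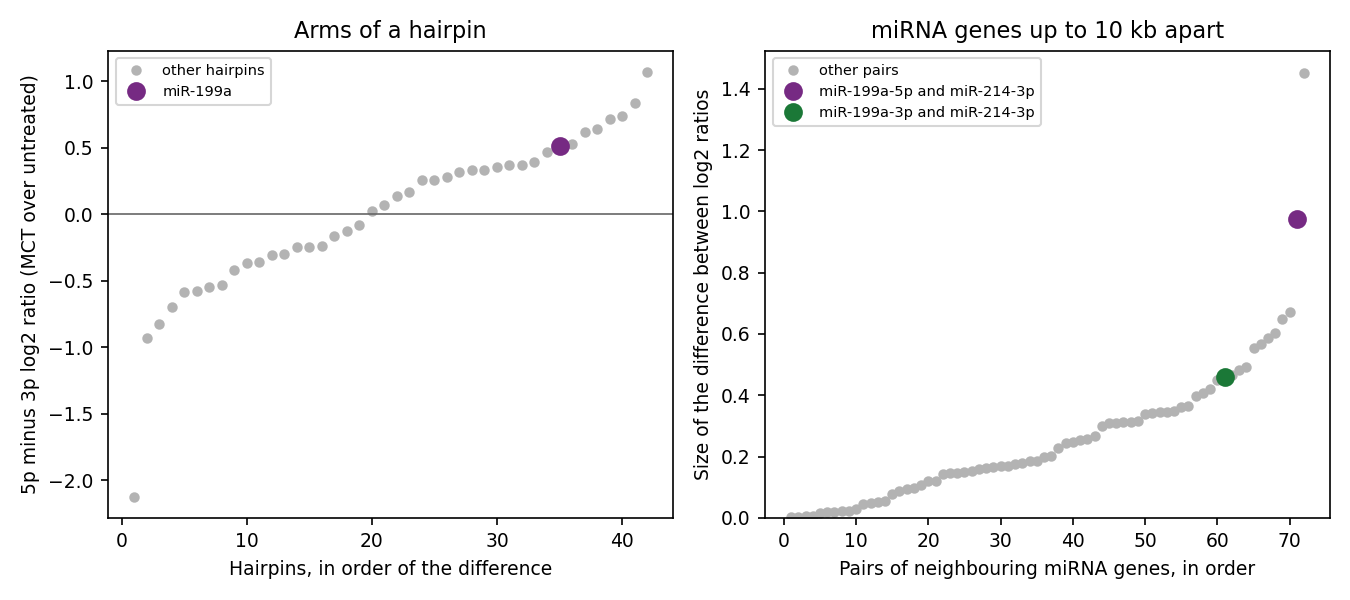
Left, the log2 ratio (MCT over untreated) of the 5p arm minus that of the 3p arm for 42 hairpins in order, with miR-199a at 0.52 in purple. Right, the size of the difference between log2 ratios for 72 pairs of miRNAs from genes up to 10 kb apart, with miR-199a-5p and miR-214-3p at 0.97 (purple) next to the highest pair and miR-199a-3p and miR-214-3p at 0.46 (green) in the upper part.

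Base composition moved with the ratios. Over the 310 miRNAs detected on both arrays, GC content and log2 ratio had a Spearman's rho of -0.36, across miRNAs that share 2 arrays and are not independent. The median ratio was 0.039 for the 54 miRNAs with at most 40% GC, 0.14 for the 132 up to 50%, -0.061 for the 64 up to 60% and -0.33 for the 60 above that. miR-199a-3p had 40.9% GC, miR-199b-5p 47.8%, miR-199a-5p 52.2% and miR-214-3p 59.1%. The order of the members by GC content is thus not their order by ratio, since miR-199a-5p had more GC than miR-199a-3p and the higher ratio. With the trend removed by a lowess fit the log2 ratios were 0.65 for miR-199a-5p, 0.41 for miR-199b-5p, 0.040 for miR-199a-3p and -0.17 for miR-214-3p. miR-214-3p then stood above 43.8% of its peers and the gap between miR-199a-5p and miR-214-3p was 0.81.

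**Figure D4:**
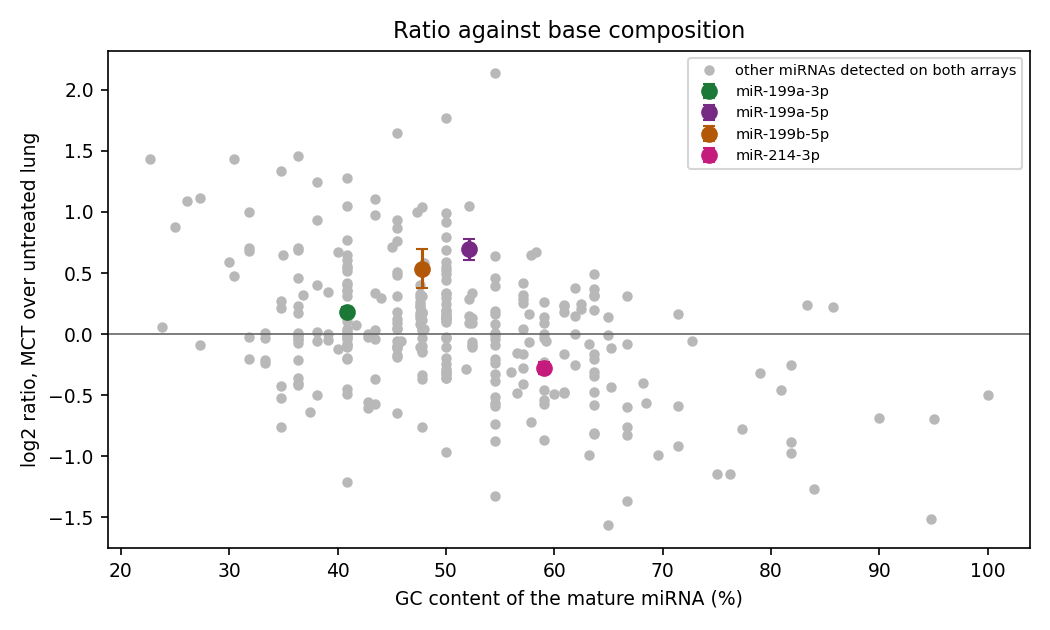
Log2 ratio of MCT over untreated lung against the GC content of the mature miRNA for miRNAs detected on both arrays (grey), with the 4 members in colour and bars for the standard deviation over repeat spots. miR-214-3p lies at 59.1% GC and -0.28, and miR-199a-5p at 52.2% and 0.70.

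The ratios were also set beside those of the spots around each member. Spots of other detected miRNAs within 5 rows and 2 columns of the members' spots had a median log2 ratio of 0.39 around miR-199a-5p (42 spots), 0.34 around miR-199b-5p (51 spots) and 0.30 around miR-199a-3p (42 spots), against 0.10 around miR-214-3p (42 spots) and 0.023 for all miRNAs detected on both arrays. Relative to their surroundings the log2 ratios were 0.31 for miR-199a-5p, 0.20 for miR-199b-5p, -0.12 for miR-199a-3p and -0.38 for miR-214-3p. The sign of miR-199a-3p turned, and the ratios of both 5p arms were smaller than those above by more than 1.5 times. Probes were laid out in the order of their names, and the 3 repeat spots of a member lay in the same row. The same miRNAs thus surrounded each repeat spot, and the spots counted above are repeats of fewer miRNAs. Place on the array cannot be told apart from which miRNAs lie there, and the part of either was not tested.

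The scaling between the arrays set the absolute ratios. Without normalization the median log2 ratio of the miRNAs detected on both arrays was 0.89, and miR-199a-5p had 1.78, miR-199b-5p 1.86, miR-199a-3p 0.96 and miR-214-3p 0.89. Both 5p arms passed 2-fold in this setting, after centring on either the median or the 75th percentile and after scaling by the 5S probes. Relative to the median of the arrays they then stood higher by 0.88 and 0.96, miR-199a-3p by 0.070, and miR-214-3p at -0.0015. Peers of like level had medians without normalization of 1.14 for miR-199a-5p, 1.31 for miR-199b-5p, 0.78 for miR-199a-3p and 1.08 for miR-214-3p. Part of the height of the 5p arms was thus shared by miRNAs of their level. Centring and scaling by the 5S probes shift each array by a constant, so they cannot change the places among peers found without normalization. Over the 14 alternatives miR-199a-5p stood above 71.4% to 86.0% of its peers, miR-199b-5p above 64.1% to 84.3%, miR-199a-3p above 34.3% to 82.9%, and miR-214-3p above 18.8% to 43.8%.

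**Figure D5:**
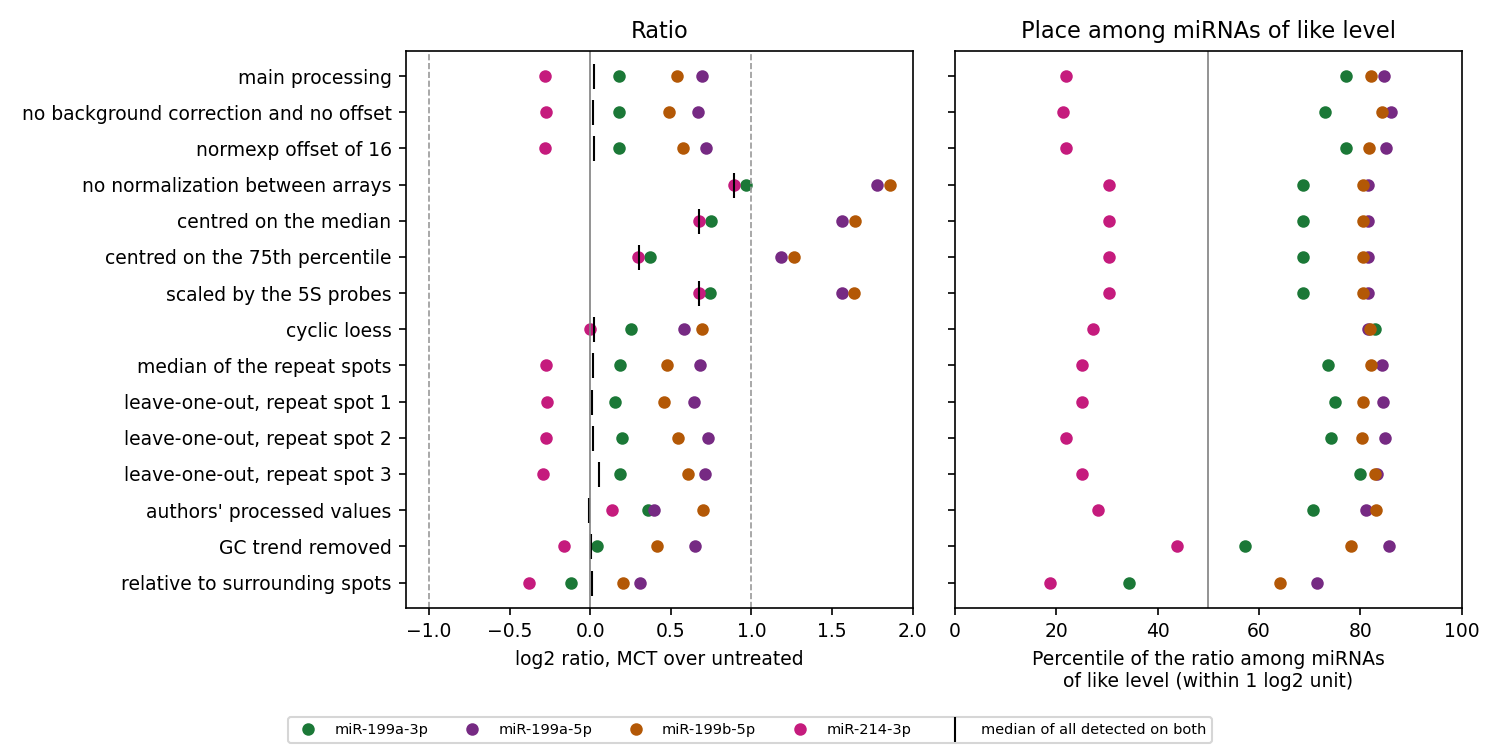
The 4 members detected on both arrays under the main processing and 14 alternatives (rows). Left, the log2 ratio of MCT over untreated lung, with the median of all miRNAs detected on both arrays as a black tick and dashed lines at 2-fold; right, the percentile of the ratio among miRNAs within 1 log2 unit of level, where the miR-199 5p arms stay right of 50 and miR-214-3p left of it.

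Other miRNAs of mesenchymal cells and matrix, a list of 14 with 12 detected on either array, included 1 higher and 0 lower in MCT lung, beside 4.16% higher and 2.20% lower among all miRNAs detected on either array. The count rests on a single miRNA. Their median log2 ratio was 0.36, against -0.044 for all 409 and 0.023 for all miRNAs detected on both arrays. The latter is the closer comparison, since all 12 were detected on both. The higher one was miR-335-5p, from an intron of Mest, at 1.44 ± 0.22. Its brightest members were miR-145-5p and miR-143-3p of smooth muscle, at 0.28 ± 0.053 and 0.33 ± 0.41, miR-29a-3p, a repressor of collagens, at -0.20 ± 0.049, and the profibrotic miR-21-5p at 0.23 ± 0.093. The list was made with earlier results of these data known. Among the marker lists below, the median was 0.49 for epithelium and 0.38 for heart and skeletal muscle, so such a height was not particular to this list. It was 0.31 for smooth muscle, whose 2 miRNAs are also in this list. For red blood cells it was -0.18, for endothelium -0.20 and for white blood cells -0.52.

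Markers of the cell types of lung were present on both arrays. Over 6 detected of 7 epithelial miRNAs the summed normalized intensity was 18893 in MCT lung and 15825 in untreated lung. Their log2 ratios went both ways, from -0.49 for miR-203-3p to 0.77 for miR-429-3p, with miR-200a-3p at 0.51 ± 0.089 and miR-200c-3p at -0.039 ± 0.060. Of these 6, miR-141-3p was detected in MCT lung only. Both endothelial miRNAs were detected and summed to 38338 in MCT lung and 41576 in untreated lung, with miR-126-3p at -0.12 ± 0.12 and miR-126-5p at -0.29 ± 0.18 (miR-126-5p was not detected in MCT lung). Both smooth muscle miRNAs summed to 47864 in MCT lung and 38892 in untreated lung. Of 4 white blood cell miRNAs 2 were detected, summing to 13014 in MCT lung and 12599.8 in untreated lung, and they differed in sign, with miR-223-3p at -1.21 ± 0.21 and miR-150-5p at 0.17 ± 0.077. Of 3 red blood cell miRNAs 2 were detected, summing to 37366 in MCT lung and 38973 in untreated lung, with miR-451 at -0.038 ± 0.035 and miR-3107-5p at -0.31 ± 0.047. Of 7 heart and skeletal muscle miRNAs 4 were detected, summing to 11278 in MCT lung and 9970.5 in untreated lung. They had a median log2 ratio of 0.38, with miR-133b-3p at 0.79 ± 0.087, miR-133a-3p at 0.64 ± 0.080, miR-206-3p at 0.12 ± 0.12 and miR-1a-3p at -0.086 ± 0.076. miR-208a-3p, miR-208b-3p and miR-499-5p were not detected on either array. miR-208a-5p, the other arm of the miR-208a hairpin from the cardiac myosin gene Myh6 and no member of the list, was detected on both, at 9.60 ± 0.029 in MCT lung and 7.46 ± 0.10 in untreated lung. Its log2 ratio of 2.14 ± 0.11 was the highest of all miRNAs detected. The part of shifts in cell types in the ratios of miR-199 and miR-214 was not tested.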

How the data were processed

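Total RNA of 2 mouse lung samples was poly(A)-tailed, tagged, hybridised to a microfluidic chip and stained with Cy3, per the labels' protocols. The deposited scanner tables hold a median pixel intensity per spot, linear and not background-subtracted, per the file headers and the empty spots. A deposited table of processed intensity, 1 linear value per probe, came from the authors by steps that the labels do not describe. Background was corrected with normexp (offset 50) in limma 3.58.1 under R 4.3.3 on the spot signals. Log2 values of 3423 miRNA spots went through quantile normalization across both arrays, and 3 spots were averaged per miRNA. Calls needed detection on either array, a ratio of at least 2-fold and no overlap of the spots. Ratios are MCT over untreated. The steps were run on simulated arrays drawn from the untreated array, with known changes of at least 2-fold and no trend by GC content or position. Smaller changes were not simulated. Precision is limited by having 1 array per group; repeat spots had a median standard deviation of 0.051 log2 on the MCT array and 0.085 on the untreated array. Members, lists and rules were chosen with earlier results of these data known. Named are the members, probes sharing a seed with them, miRNA genes within 10 kb, the 2 miRNAs closest in ratio within 1 log2 unit of level, the 4 brightest of the mesenchymal list and the first detected marker per cell type. miR-335-5p, the pair of miR-206-3p and miR-133b-5p, miR-208a-5p and all but the first of the named markers of each cell type were named after their values were seen. The miRNA gene Gm23363, 116 bases from Mir199b, had no probe on the arrays. RefSeq (GRCm38.p6) holds the mature target of 4 of the 5 members; that of miR-199b-5p was read from the array's target column. Alternatives changed the background correction, offset, normalization, spot summary, spots left out, detection, GC trend and source of values (pseudocount 50 for the authors' values). The correction for surrounding spots was added after seeing the data. Further steps ran in Python 3.11.15 (numpy 2.4.6 and pandas 2.3.3; lowess from statsmodels 0.14.6; plots by matplotlib 3.10.9; rank correlation by scipy 1.17.1).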

Additional observations from a re-analysis of the deposited data

How the results depend on the processing

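No paired analysis was possible because each group had 1 array. Log2 ratios are given in the order miR-199a-3p, miR-199a-5p, miR-199b-5p, miR-214-3p. Without normalization they were 0.96, 1.78, 1.86 and 0.89 (miR-214-5p 0.44), with 142 miRNAs higher and 0 lower. Centred on the median of all miRNA spots they were 0.75, 1.56, 1.64 and 0.68, with 97 higher and 0 lower, and scaled by the 5S probes 0.75, 1.56, 1.64 and 0.67, also with 97 and 0. Centred on the 75th percentile they were 0.37, 1.18, 1.26 and 0.30 (miR-214-5p -0.16), with 49 higher. Cyclic loess gave 0.25 for miR-199a-3p, 0.58 for miR-199a-5p and 0.00079 for miR-214-3p. The authors' processed values gave 0.36, 0.40, 0.70 and 0.13, with 16 miRNAs lower. With the GC trend removed miR-199a-3p had 0.040 and miR-214-3p -0.17, and 8 miRNAs were higher. An offset of 16 gave 19 lower. Relative to surrounding spots, an alternative chosen after seeing the data, the ratios were -0.12, 0.31, 0.20 and -0.38 (miR-214-5p -0.053), with 18 lower.

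With repeat spots left out in turn, miR-199a-3p had 0.15 to 0.20, miR-199a-5p 0.64 to 0.73, miR-199b-5p 0.46 to 0.61, miR-214-3p -0.29 to -0.27 and miR-214-5p 0.026 to 0.14, with 16 to 20 miRNAs higher and 9 to 11 lower. Over the 14 alternatives the ratios of miR-199a-5p and miR-199b-5p stayed above 0, passing 2-fold in 4 of them, that of miR-199a-3p was above 0 in 13, and that of miR-214-3p was above 0 in 6 and below in 8; the cause was not tested. The difference of miR-199a-5p over miR-214-3p ran from 0.27 to 1.01 and that of the miR-199a arms from 0.037 to 0.81. Signal over background limits miR-214-5p, and 1 array per group limits every ratio.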
